A study of Homo sapiens with 7 samples.

Results

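Chromosome 19 carries a dense collection of zinc finger genes, and their promoters were followed here through the chromatin loops of 3 cancer cell lines. The members were the protein-coding genes of chromosome 19 whose symbol begins with ZNF or ZFP and a number, 254 of the 20163 protein-coding genes of the GENCODE annotation lifted to GRCh37. Of these, 3 were readthrough records that span neighbouring genes. Loops came from H3K27ac HiChIP, which captures pairs of DNA fragments that touch each other where histone H3 is acetylated at lysine 27, a mark of active promoters and enhancers. The lines were Ishikawa from endometrial adenocarcinoma, with 4 samples, T-47D from a breast tumour, with 1 sample, and LNCaP from prostate cancer, with 2 samples. Of the Ishikawa samples, 2 received DMSO and 2 received 10 nM E2, the estrogen 17β-estradiol, for 1 h. No treatment is labelled for the other lines, and each line is a single tumour-derived model. The samples of a line were combined into 1 loop list, so replicate error could not be measured, no test over samples was possible, and the 95% Wilson intervals cover counting error only. The 4 Ishikawa samples also differed from the others in restriction enzyme (DpnII against MboI, which both cut at GATC), sonication, read length and depth. These cannot be told apart from the cell line in any comparison with Ishikawa.

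Most zinc finger proteins of this chromosome join an array of C2H2 fingers, which read DNA sequence, to a KRAB domain. The KRAB domain binds the corepressor TRIM28 (KAP1), which brings the histone methyltransferase SETDB1 and HP1 proteins, and many of these proteins silence transposable elements. The genes arose by repeated tandem duplication and lie in clusters of close relatives. ZFP36 entered by its symbol alone, since it encodes tristetraprolin, an RNA-binding protein of another finger type that promotes mRNA decay.

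A loop here is a pair of different anchors, the intervals between restriction sites that held signal, joined by 3 or more read pairs. A gene was counted in a loop when 1 of its anchors overlapped a 500 bp window centred on any of its start sites. The Ishikawa, T-47D and LNCaP lists held 163530, 42027 and 149226 loops, with 1040329, 351260 and 1805322 read pairs. Read pairs were not scaled for depth, so the values of a gene in the 3 lists, always given in the order Ishikawa, T-47D and LNCaP, are not levels on 1 scale. Genes that mark each tissue had most of their read pairs in the line from it, with 6, 0 and 2936 read pairs for KLK3 (prostate-specific antigen), 7, 1063 and 0 for GATA3 (breast luminal factor) and 162, 0 and 0 for PAX8 (Müllerian factor). The members had 332, 521 and 1300 loops in Ishikawa, T-47D and LNCaP, which is 0.203%, 1.24% and 0.871% of the loops of each list.

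Promoter sequences are shown for members on which later results turn. The promoters of ZNF823 and ZNF441 were the ends of the strongest loop between 2 members in Ishikawa and in T-47D. ZNF93 and ZNF91, repressors of LINE-1 and SVA retrotransposons, stand for the cluster with the lowest share of members in loops in Ishikawa. ZNF20 was among the members joined to the most other members, and ZNF274, which brings SETDB1 to zinc finger genes themselves, had loops to other members in every list. Each sequence is the RefSeq promoter, 300 bases from upstream of the start into the transcript, written 5′ to 3′ on the strand of the gene and located by its exact match in GRCh37. Capitals mark CCAAT, the box named for its letters, and CCGGAAG, a word of the ETS family of transcription factors, on either strand. The intervals are chr19:11849712-11850011 (minus strand) for ZNF823, chr19:11877565-11877864 (plus strand) for ZNF441, chr19:12251116-12251415 (minus strand) for ZNF20, chr19:20011505-20011804 (plus strand) for ZNF93, chr19:23578224-23578523 (minus strand) for ZNF91 and chr19:58694178-58694477 (plus strand) for ZNF274.
ZNF823: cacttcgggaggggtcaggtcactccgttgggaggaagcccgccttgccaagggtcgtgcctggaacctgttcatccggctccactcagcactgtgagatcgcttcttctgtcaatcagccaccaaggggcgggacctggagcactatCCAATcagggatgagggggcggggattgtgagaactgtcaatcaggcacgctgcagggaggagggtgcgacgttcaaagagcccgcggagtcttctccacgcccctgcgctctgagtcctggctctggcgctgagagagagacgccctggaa
ZNF441: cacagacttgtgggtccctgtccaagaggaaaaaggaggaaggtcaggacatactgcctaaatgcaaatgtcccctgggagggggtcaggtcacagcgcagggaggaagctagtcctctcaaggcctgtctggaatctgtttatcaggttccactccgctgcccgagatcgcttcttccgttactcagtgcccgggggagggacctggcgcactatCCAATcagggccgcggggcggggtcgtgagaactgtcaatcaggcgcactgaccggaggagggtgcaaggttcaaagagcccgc
ZNF20: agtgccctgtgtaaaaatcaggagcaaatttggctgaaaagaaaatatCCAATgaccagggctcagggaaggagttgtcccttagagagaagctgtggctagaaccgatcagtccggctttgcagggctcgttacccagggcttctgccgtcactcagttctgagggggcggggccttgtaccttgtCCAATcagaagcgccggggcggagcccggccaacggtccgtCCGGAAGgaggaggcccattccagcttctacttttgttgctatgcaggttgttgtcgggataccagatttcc
ZNF93: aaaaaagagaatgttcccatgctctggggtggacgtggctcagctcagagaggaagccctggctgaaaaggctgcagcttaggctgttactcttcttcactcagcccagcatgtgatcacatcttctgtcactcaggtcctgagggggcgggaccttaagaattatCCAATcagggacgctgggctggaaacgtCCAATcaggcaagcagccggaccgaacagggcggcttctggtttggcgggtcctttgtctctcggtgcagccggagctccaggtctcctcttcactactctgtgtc
ZNF91: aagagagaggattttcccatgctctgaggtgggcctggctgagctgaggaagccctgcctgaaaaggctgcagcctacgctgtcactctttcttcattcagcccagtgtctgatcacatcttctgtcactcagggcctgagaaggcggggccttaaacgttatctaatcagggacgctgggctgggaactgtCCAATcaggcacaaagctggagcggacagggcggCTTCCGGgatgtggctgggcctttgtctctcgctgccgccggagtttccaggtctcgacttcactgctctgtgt
ZNF274: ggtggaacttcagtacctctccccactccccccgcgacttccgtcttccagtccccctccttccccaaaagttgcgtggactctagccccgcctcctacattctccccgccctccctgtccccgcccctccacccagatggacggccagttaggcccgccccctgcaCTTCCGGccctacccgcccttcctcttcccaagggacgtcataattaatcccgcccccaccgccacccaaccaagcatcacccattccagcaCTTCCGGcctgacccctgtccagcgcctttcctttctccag
The promoters of ZNF823 and ZNF441 shared an exact run of 20 bases, and those of ZNF93 and ZNF91 a run of 24 bases. All of these promoters lay in a HiChIP anchor of their gene in every list, except that of ZNF93 in Ishikawa.

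The members were in loops less often than other genes in Ishikawa and more often in T-47D and LNCaP. In Ishikawa, 111 members (43.7%, 95% interval 37.7 to 49.8) were in a loop, against 57.3% of all protein-coding genes. In T-47D the count was 190 (74.8%, 69.1 to 79.7) against 49.2%, and in LNCaP it was 220 (86.6%, 81.9 to 90.3) against 58.1%. The intervals of the members lay outside the value for all genes in each list. The other 1226 protein-coding genes of chromosome 19 gave 59%, 49.2% and 57.5%, and the 106 of them that lie inside the zinc finger clusters gave 50.9%, 45.3% and 47.2%. ZNF and ZFP genes of other chromosomes, 283 in all, differed from all genes in the same direction by less, with 54.1%, 66.1% and 74.6%. Anchors are read from the same lists, so counts of members in an anchor are not a separate measure. LNCaP held no pairs of an anchor with itself, so lying in an anchor and in a loop are the same there. In Ishikawa, T-47D and LNCaP, 113 (44.5%), 202 (79.5%) and 220 (86.6%) members lay in an anchor, against 58.2%, 53.5% and 58.1% of all genes.

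These differences depended on depth and on loops of few read pairs to different degrees. The Ishikawa list was made of 4 separately sorted parts, which no label assigns to a sample. Members were in loops less often than all genes in each part, with 12.2% to 33.5% of members against 25.1% to 49.4% of genes. Requiring 10 read pairs per loop left 51 members in T-47D and turned the difference from all genes from 25.6 to -2.95 percentage points, whereas the LNCaP difference went from 28.5 to 13.1 points. Thinning LNCaP to the 351260 read pairs of T-47D left an expected 133 members in a loop and a difference of 11.1 points. In Ishikawa, T-47D and LNCaP, 20, 53 and 56 members shared an anchor with another gene, and each such gene was counted. Through anchors that hold no other gene, 96, 145 and 171 members were in a loop. Neither the sharing of anchors nor this count was taken over all genes, so the members cannot be set against them in either.

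**Figure D1:**
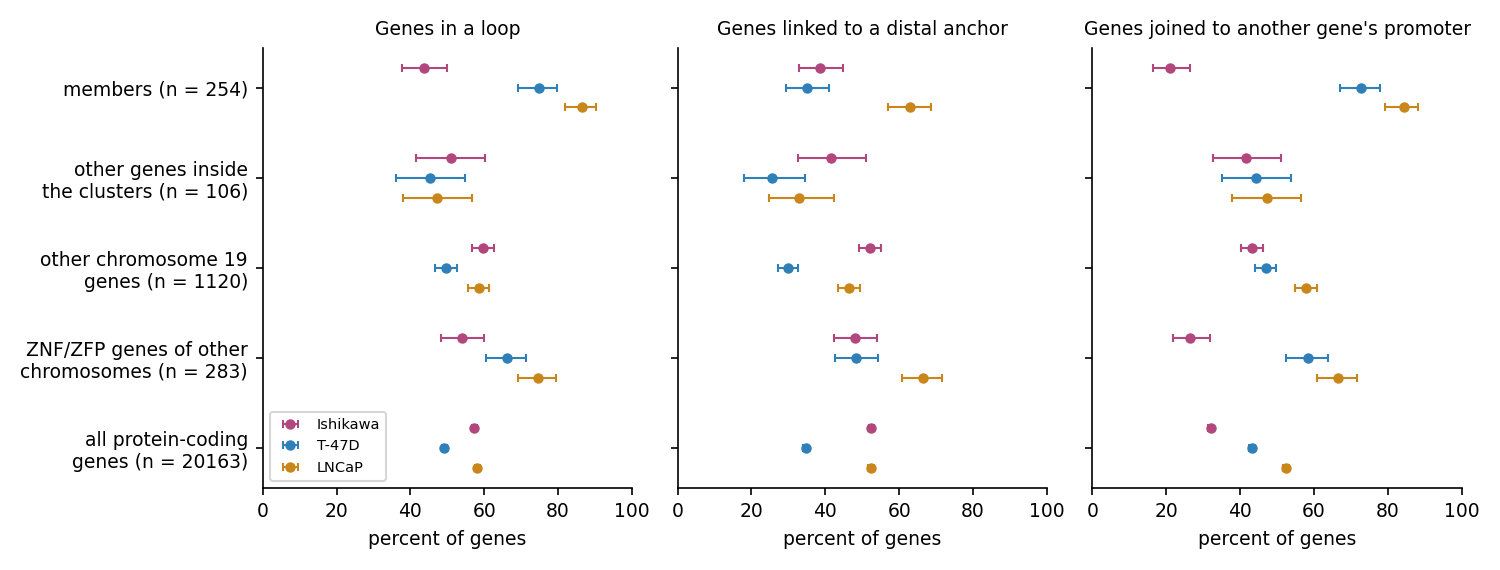
Percent of genes in a loop, linked to a distal anchor, and joined to another gene's promoter in each list. The members and 4 comparison sets are shown. A distal anchor overlaps no promoter window of a protein-coding gene. Points are percents and bars are 95% Wilson intervals. The members sit at 43.7%, 74.8% and 86.6% in the first panel, the widest spread between lists of the 5 sets.

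Promoter contacts were split into those with other promoters and those with distal anchors. Promoters here are the 500 bp windows of protein-coding genes, and a distal anchor overlaps none of them. Promoters of other types of gene thus count as distal. In T-47D the members stood above all genes in the first kind and level with them in the second, and in LNCaP they stood above in both. A loop to a distal anchor was found for 98 (38.6%), 89 (35%) and 160 (63%) members in Ishikawa, T-47D and LNCaP, against 52.5%, 34.7% and 52.4% of all genes. The ZNF and ZFP genes of other chromosomes gave 48.1%, 48.4% and 66.4%, above the members in each list, with overlapping intervals in Ishikawa and LNCaP. A loop to the promoter of another gene was found for 53 (20.9%), 185 (72.8%) and 214 (84.3%) members, against 32.1%, 43.2% and 52.4% of all genes. The ZNF and ZFP genes of other chromosomes had such a loop in 26.5%, 58.3% and 66.4%. In T-47D, 101 members (39.8%) touched other promoters and no distal anchor, which 14.2% of all genes did, and in LNCaP this held for 60 members (23.6%) and 5.62% of genes. In Ishikawa it held for 9 members (3.54%) and 4.29% of genes.

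Seen by loop, 25.6%, 76% and 73.2% of the member loops in Ishikawa, T-47D and LNCaP joined promoter to promoter, against 20.4%, 48% and 33.6% of all loops that touched a promoter. Both shares count loops between start sites of 1 gene, which were 20, 9 and 16 of the member loops (6.02%, 1.73% and 1.23%). Loops between 2 different members made up 22, 259 and 567 of the member loops. The median span of member loops, from centre to centre, was 26.1 kb, 84.3 kb and 124 kb, against 43.6 kb, 90.9 kb and 122 kb for all promoter loops. A loop between 2 members held a median of 4, 4 and 5 read pairs, near the 4, 5 and 6 of all loops between promoters. The median member in a loop carried 10, 16 and 46 read pairs over all its loops in these lists, below the 21, 23 and 72 of all genes in loops. Genes were also ranked by read pairs among all protein-coding genes of the same list. The percentile depends on how many genes of the list have no loop, and such genes stood at 21.4, 25.4 and 20.9. The median member stood at percentile 21.4 in Ishikawa, which is that of genes without a loop, and at 63.8 and 60.8 in T-47D and LNCaP. The median gene stood at 49.3, 25.4 and 49.7.

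Which lists held a loop differed between members. Loops in all 3 lists were found for 84 members (33.1%), close to the 33.4% of all genes. Loops in T-47D and LNCaP but not Ishikawa were found for 95 members (37.4%), against 10.9% of all genes and 20.1% of the ZNF and ZFP genes of other chromosomes. No list held a loop for 19 members (7.48%), against 24.1% of genes. Ishikawa alone held loops of 4 members (1.57%, against 12.9% of all genes), T-47D alone of 7 (2.76%, near the 2.09% of all genes) and LNCaP alone of 22 (8.66%, against 5.62%). A 0 here means that no pair of anchors reached 3 read pairs, and it does not show that contacts were absent.

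**Figure D2:**
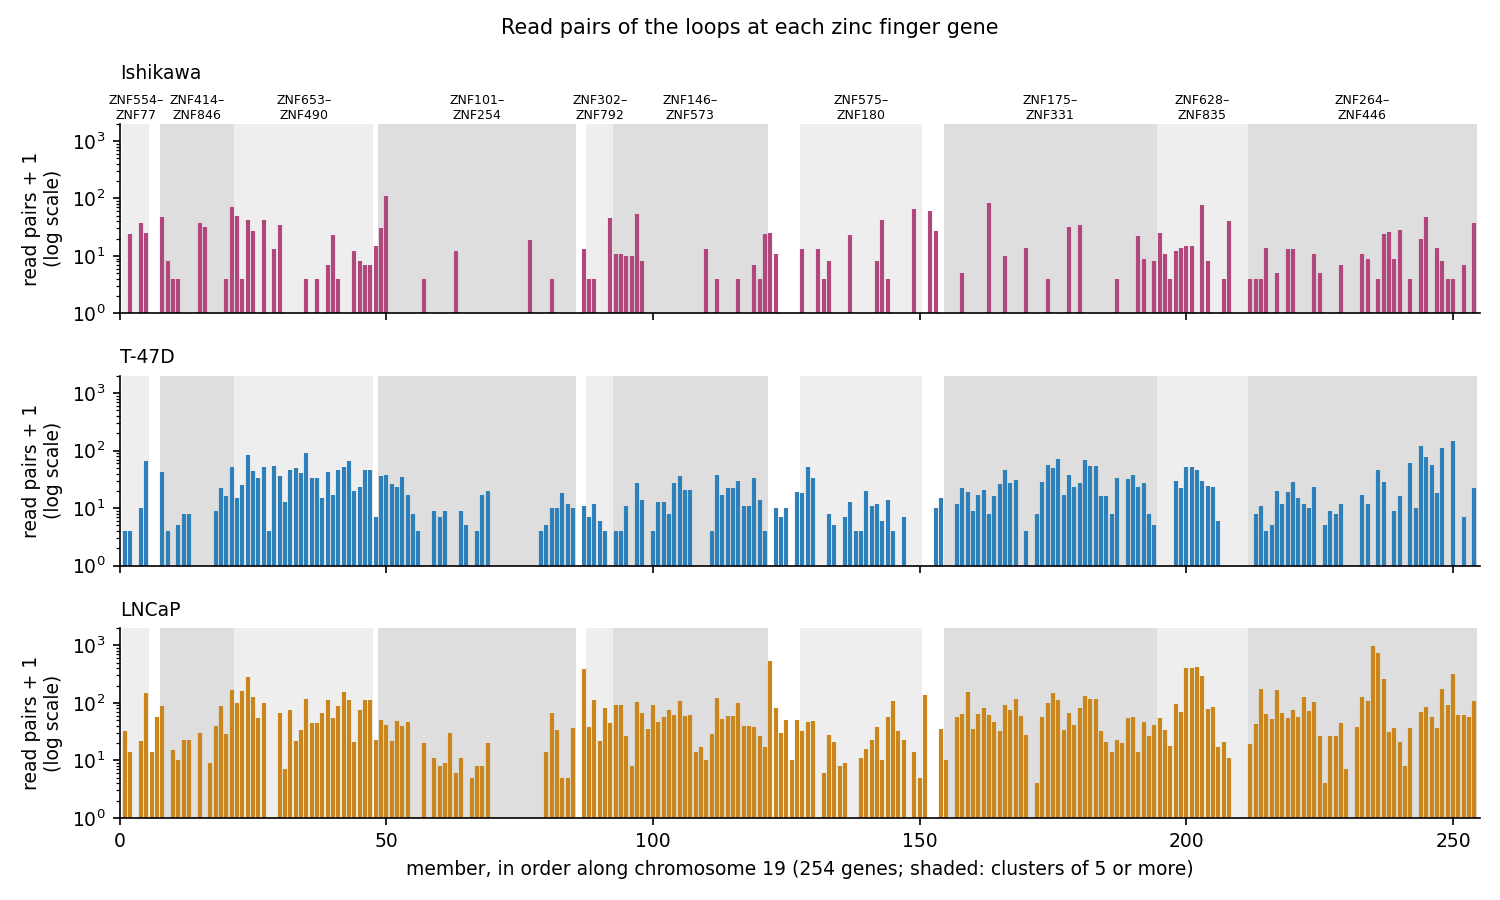
Read pairs of all loops at each of the 254 members, plotted as read pairs + 1 on a log scale, in order along chromosome 19, with 1 panel per list. Shading marks the 10 clusters of 5 or more members. Long runs of members without a loop appear in Ishikawa, and ZNF552 reaches 965 read pairs in LNCaP.

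Along the chromosome the members fell into 22 groups separated by over 500 kb, of which 10 held 5 or more members and 239 members together. The first, ZNF554 to ZNF77 (chr19:2819866-2944969), held 5 members, of which 3, 4 and 4 were in loops in Ishikawa, T-47D and LNCaP. ZNF77 led it with 24, 66 and 149 read pairs, and most loops of this cluster left its span in T-47D and LNCaP (78.6% and 88.9%). The cluster ZNF414 to ZNF846 (chr19:8574562-9903856) had 14 members, with 8, 9 and 11 in loops. ZNF846 was high in each list, with 69, 51 and 168 read pairs, and ZNF414 had the second strongest member loop of Ishikawa, 29 read pairs to a distal anchor. ZNF560, of the same cluster, had 31 read pairs in Ishikawa and no loop elsewhere.

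The cluster ZNF653 to ZNF490 (chr19:11594242-12750912) was the one in which every member was in a loop in T-47D. Its 26 members gave 16, 26 and 24 in loops, and 15 of them were in loops in all 3 lists. Each of its looped members in T-47D and LNCaP was also joined to another member, making 67 and 98 pairs, against 5 pairs in Ishikawa. ZNF823 had 41, 82 and 282 read pairs, and its loop to ZNF441, whose promoters are printed above, held 16, 20 and 37 read pairs over a distance of 28 kb. ZNF440 had 41, 52 and 100 read pairs and was joined to 3 members in Ishikawa, the highest number there. ZNF20 had 3, 90 and 114 read pairs and was joined to 1, 11 and 19 members. ZNF69 had 12 read pairs in Ishikawa, 54 in T-47D, where it was joined to 12 members, and 0 in LNCaP.

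The cluster ZNF101 to ZNF254 (chr19:19779605-24312770) is the longest, 4.53 Mb with 37 members, and had the lowest share of members in loops in Ishikawa and a low share in the other lists. In Ishikawa 6 members (16.2%, 7.65 to 31.1) were in a loop, and in T-47D and LNCaP 23 each (62.2%, 46.1 to 75.9). No loop in any list was found for 9 of its members, among the 19 such members of the chromosome. ZNF14, near its edge, carried the most read pairs of any member in Ishikawa, 109, and 36 and 41 in T-47D and LNCaP. Its loop to a distal anchor, 8.64 kb away from centre to centre, was the strongest member loop of Ishikawa, with 37 read pairs. The facing edges of the anchors lay closer, near 19845268 and 19846662. ZNF93 had 0, 34 and 39 read pairs, at percentiles 21.4, 82 and 61.7, and ZNF91 had 3, 9 and 65, at percentiles 45.7, 62.6 and 69.3. ZNF43 had 0, 19 and 19. ZNF723, with 18 read pairs, was in a loop in Ishikawa alone, and ZNF90 and ZNF738, with 7 and 4, in T-47D alone.

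The cluster ZNF302 to ZNF792 (chr19:35168544-35455133) held 5 members, of which 3, 4 and 5 were in loops, and ZNF181 led it with 3, 11 and 112 read pairs. In ZNF146 to ZNF573 (chr19:36673178-38307940), 12, 24 and 29 of the 29 members were in loops, which is each member in LNCaP. ZNF566 had 53, 26 and 103 read pairs. ZNF568, whose mouse relative represses a placental transcript of Igf2, had 0, 20 and 61 and shared an anchor with ZNF829 in T-47D and LNCaP, where the read pairs of that anchor cannot be told apart. ZNF829 had 0, 20 and 58. ZFP30 had 6, 32 and 37. In ZNF575 to ZNF180 (chr19:44029649-45004576), 9, 16 and 19 of the 23 members were in loops, and no pair of members was joined in Ishikawa. ZNF575 had 12, 17 and 32 read pairs. ZNF229 had 65, 0 and 13, all of its Ishikawa loops reaching distal anchors, 12 in number.

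The cluster ZNF175 to ZNF331 (chr19:52074536-54083523) showed a wide gap between lists. Of its 40 members, 11 (27.5%, interval 16.1 to 42.8) were in a loop in Ishikawa. T-47D had 35 (87.5%, interval 73.9 to 94.5) and LNCaP 38 (95%, interval 83.5 to 98.6), and 24 members were in loops in T-47D and LNCaP but not in Ishikawa. Only 1 pair of its members was joined in Ishikawa, against 77 in T-47D and 135 in LNCaP. ZNF888 had 0, 67 and 130 read pairs and was joined to 13 members in T-47D, the most there, and ZNF611 had 0, 70 and 112. ZNF841 went the other way, at percentile 92.3 in Ishikawa with 81 read pairs, 59.8 in T-47D with 7 and 68.2 in LNCaP with 60. ZNF28 had 31, 37 and 66. In T-47D and LNCaP, ZNF841 shared an anchor with ZNF432 and ZNF28 with ZNF468. ZNF331, an imprinted gene, had 7, 4 and 40. ZNF677, often methylated at its promoter in tumours, was in a loop in LNCaP alone, with 19 read pairs.

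The cluster ZNF628 to ZNF835 (chr19:55987984-57183151) was less one-sided, with 11, 9 and 14 of its 17 members in loops. ZNF444 had 76, 29 and 298 read pairs and ZNF787 had 0, 46 and 412. ZNF580 had 14, 50 and 404 but shared its anchor with ZNF581 and CCDC106 in every list, and the strongest member loop of T-47D, 34 read pairs, ran from this shared anchor to U2AF2, which encodes a splicing factor. ZNF582, another gene with tumour promoter methylation, had 7, 23 and 76.

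The last cluster, ZNF264 to ZNF446 (chr19:57702868-58992597), had 43 members, of which 26, 32 and 41 were in loops, and 22 were in loops in all 3 lists. ZNF274 had 46, 78 and 84 read pairs, and its loops to ZNF329 held 4, 12 and 13. ZNF329 had 19, 120 and 67, ZNF497 had 7, 112 and 176, and ZNF584 had 3, 145 and 313. Of ZNF154 and ZNF671, neighbours with promoter methylation in many tumours, ZNF154 was in no anchor of any list and ZNF671 had loops in LNCaP alone, with 37 read pairs. ZNF132 had 60 read pairs in LNCaP alone, and ZNF135 had 9 in T-47D alone.

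ZNF552, in the same cluster, had no anchor in Ishikawa or T-47D and the most read pairs of any member in LNCaP. It had 45 loops and 965 read pairs there and was joined to 31 other members. Its anchor was the widest of any member, 21.8 kb (chr19:58306848-58328692), against a median of 3.38 kb for member anchors in LNCaP, and the part of this width in the count was not tested. The strongest loop between 2 members in any list, with 414 read pairs, ran from this anchor to one that holds a start site of ZNF587B and the gene ENSG00000268750, which cannot be told apart. The centres of these anchors lay 15.8 kb apart, but their facing edges lay far closer, near 58328692 and 58329392. ZNF587B had 3, 46 and 739 read pairs, and its loop to ZNF587 held 3, 10 and 81.

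**Figure D3:**
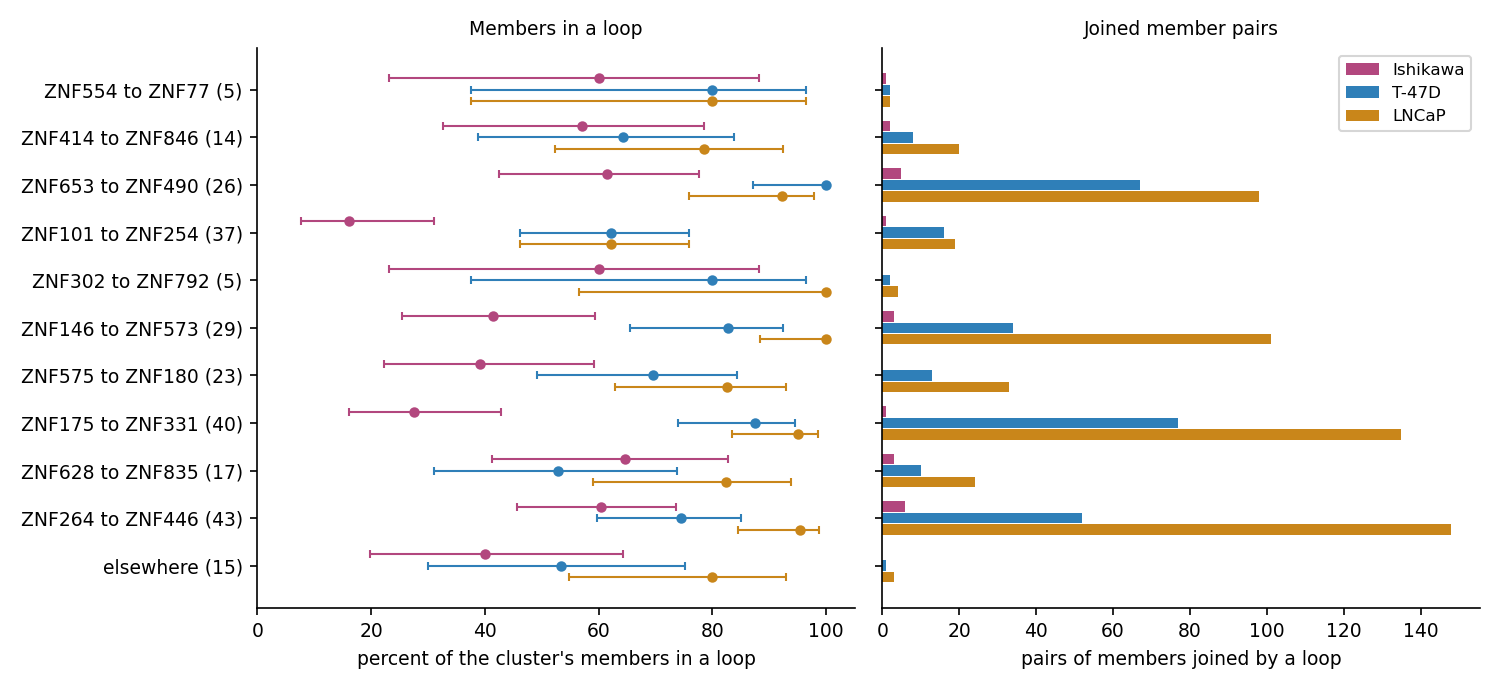
Percent of the members of each cluster in a loop, with 95% Wilson intervals, and the number of member pairs joined by a loop in each cluster and list. The number of members is given in brackets. The cluster ZNF101 to ZNF254 has the lowest point in Ishikawa, 16.2%, and ZNF264 to ZNF446 has the most joined pairs, 148 in LNCaP.

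Outside these clusters lay 15 members, of which 6, 8 and 12 were in loops. ZFP36 had 24, 0 and 524 read pairs and shared its anchor with PLEKHG2 in both lists that held it, and its strongest loop, 124 read pairs in LNCaP, reached an anchor over RPS16 and SUPT5H. ZNF507 had 12, 10 and 393, of which 204 lay in 1 loop to a distal anchor. ZNF541 had 59, 0 and 0, the most read pairs among the 4 members with loops in Ishikawa alone. ZNF296 had 135 in LNCaP alone, in an anchor shared with GEMIN7 and MARK4. ZNF473, whose product takes part in histone pre-mRNA processing, had 0, 14 and 34 in an anchor shared with VRK3. ZNF536, a neuronal gene, was in no anchor of any list.

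Joined members lay in the same cluster with few exceptions, which is largely set by the cluster rule. Members of different clusters lie over 500 kb apart, where few genes of any kind were joined. Among any 2 genes 500 to 1000 kb apart with promoters in different anchors, the shares were 0.395%, 2.5% and 8% in Ishikawa, T-47D and LNCaP. The loops joined 22, 283 and 592 pairs of members in the Ishikawa, T-47D and LNCaP lists, and of these 22, 282 and 587 lay within a cluster. The exceptions were 1 pair in T-47D, ZNF414 and ZNF20, whose anchors lay 3674 kb apart with 3 read pairs, and 5 pairs in LNCaP between the last 2 clusters of the chromosome. Both lists T-47D and LNCaP held 200 pairs, 70.7% of the T-47D pairs and 33.8% of the LNCaP pairs. Overlaps between lists were not counted for pairs of other genes, so they cannot be called a trait of the members. All 16 pairs shared by Ishikawa and T-47D were also in LNCaP. They included ZNF823 and ZNF440 (3, 5 and 12 read pairs), ZNF17 and ZNF749 (9, 8 and 11), ZNF417 and ZNF418 (8, 5 and 6) and ZNF765 and ZNF761 (8, 5 and 3).

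Joined pairs were also set against all pairs whose promoters both lay in anchors. In LNCaP every gene in an anchor is already in a loop, unlike in the other lists. The shares are therefore not on 1 footing between lists. Among pairs of genes 20 to 500 kb apart whose promoters lay in different anchors, 19 of 394 pairs of members (4.82%, interval 3.11 to 7.41) were joined in Ishikawa. T-47D joined 252 of 1214 (20.8%, interval 18.6 to 23.1) and LNCaP 515 of 1471 (35%, interval 32.6 to 37.5). A gene can enter many pairs, so the pairs are not independent and the intervals in this comparison are too narrow. For 2 other genes of chromosome 19 the values were 8.83%, 22.6% and 43.8%, and for any 2 genes of a chromosome in the genome 12.7%, 32.2% and 48.2%. Inside the clusters, 2 other genes gave 14.6% (interval 9.96 to 21), 18.2% (interval 12.3 to 26) and 31.2% (interval 23.9 to 39.7). Against these the members were lower in Ishikawa and slightly higher in T-47D and LNCaP, with overlapping intervals in T-47D and LNCaP. Given that both promoters were in anchors, the share for members over this whole range was below that for 2 other genes of the chromosome in each list, with overlapping intervals in T-47D. At 20 to 100 kb the shares were 16.5%, 49.6% and 68.3% for members and 33.4%, 58.8% and 76.7% for 2 other genes of the chromosome. Inside the clusters, 44, 32 and 44 pairs of other genes gave 38.6%, 46.9% and 54.5% at this distance. At 100 to 250 kb, 53, 40 and 40 such pairs gave 7.55%, 15% and 20%, the last with an interval of 10.5 to 34.8. The shares there were 2.99%, 20.4% and 38.9% (interval 34.8 to 43.2) for members. For 2 other genes of the chromosome they were 7.53%, 23.5% and 51%. At 250 to 500 kb the shares were 0.571%, 7.43% and 16.9% against 0.567%, 6.35% and 24.8%, so the members were lower in LNCaP alone. Inside the clusters, 2 other genes gave 3.33%, 2.04% and 18.2% there. At 500 to 1000 kb the shares were 0%, 1.25% and 4.32% for members. For 2 other genes of the chromosome they were 0.0358%, 0.506% and 5.84%. The members thus stood higher in T-47D alone, with overlapping intervals (0.659 to 2.36 and 0.331 to 0.772). Inside the clusters, 2 other genes gave 0%, 1.3% and 2.53% there.

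**Figure D4:**
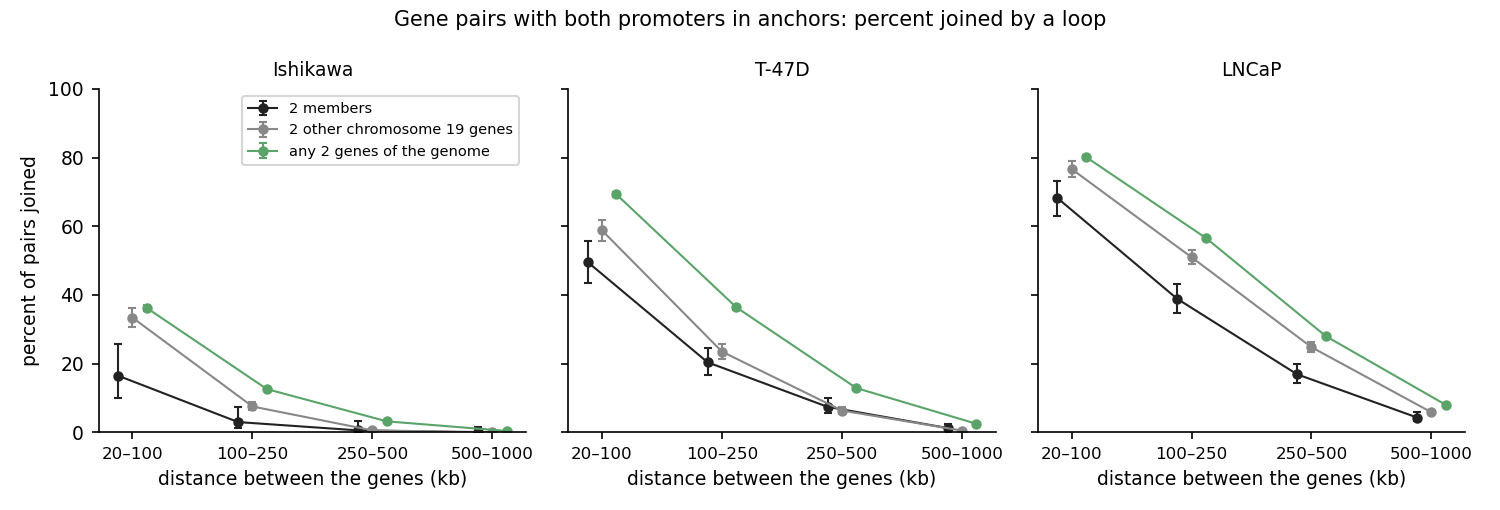
Percent of gene pairs joined by a loop, among pairs whose promoters lie in different anchors, by distance between the genes, for pairs of members, pairs of other chromosome 19 genes and all pairs in the genome. Bars are 95% Wilson intervals, which treat the pairs as independent and are too narrow. The points for members lie below those of the genome at 20 to 100 kb in each list (16.5% against 36.2%, 49.6% against 69.3% and 68.3% against 80.2%).

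Because the members are duplicated genes, the anchors of a loop can hold copies of the same sequence, which makes short reads harder to place. An identical run of 50 bases on either strand was present in both anchors of 3 of 22 loops between members in Ishikawa (13.6%), 21 of 259 in T-47D (8.11%) and 45 of 567 in LNCaP (7.94%). For loops between 2 other promoters of chromosome 19 the shares were 8.68%, 0.605% and 3.79%. The anchors of ZNF823 and ZNF441 shared a run of 70 bases, and those of ZNF552 and ZNF587B a run of 68 bases. The part of such copies in the counts was not tested.

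The promoters differed between clusters in sequence. Over the 500 bp window at the 5′ end of the gene, the members had a median GC content of 59.6% and a median ratio of observed to expected CpG dinucleotides of 0.747, against 61.6% and 0.719 for all genes. The cluster ZNF101 to ZNF254 stood lowest, with a CpG ratio of 0.472, and 8.11% of its members reached 0.6, a usual limit for a CpG island. The cluster ZNF264 to ZNF446 had a ratio of 0.807, with 95.3% at or over that limit. Members in loops in all 3 lists had a median of 0.763, and those in T-47D and LNCaP but not Ishikawa 0.732. Members in other sets of lists had 0.75 and those in no list 0.582, against 0.352 for all genes in no list. Of the 19 members in no list, 9 lie in ZNF101 to ZNF254.

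RefSeq promoters were available for 221 members and 15318 protein-coding genes, and short words were counted in them on both strands. CCGGAAG was present in 44.8% of member promoters, 33.3% of those of the ZNF and ZFP genes of other chromosomes and 14.4% of all promoters. CCAAT was present in 53.4%, 43.3% and 36.6% of the same sets, and TATAAA, the TATA box, in 1.81%, 3.9% and 9.59%. The words were spread unevenly over the clusters. CCGGAAG was found in 72.4% of the promoters of ZNF101 to ZNF254, 67.5% of ZNF264 to ZNF446 and 63.6% of ZNF175 to ZNF331, but in 8% of ZNF653 to ZNF490. CCAAT was found in all 29 promoters of ZNF101 to ZNF254 and in 92% of the 25 of ZNF653 to ZNF490.

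In the printed promoters of ZNF823, ZNF441, ZNF93 and ZNF91 the box stands within the longer word CCAATCAGG, which was counted after these sequences had been seen and which contains CCAAT. It was present in 44 member promoters (19.9%), against 9.96% of those of the ZNF and ZFP genes of other chromosomes, 1.69% of those of other genes of chromosome 19 and 1.59% of all promoters. The 44 lay in 3 clusters: 26 of 29 promoters in ZNF101 to ZNF254 (89.7%), 15 of 25 in ZNF653 to ZNF490 (60%) and 3 of 5 in ZNF554 to ZNF77 (60%). No promoter of the other 7 clusters held it. These clusters differed in their loops, since ZNF653 to ZNF490 had 61.5% and ZNF101 to ZNF254 had 16.2% of members in a loop in Ishikawa. Among promoters of members grouped by their loops, the word was present in 14 of 79 for loops in all 3 lists (17.7%), 20 of 80 for T-47D and LNCaP but not Ishikawa (25%), 6 of 48 for other sets of lists (12.5%) and 4 of 14 for no list (28.6%), which is no steady order. A word match describes the sequence and does not show that a factor binds there.

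**Figure D5:**
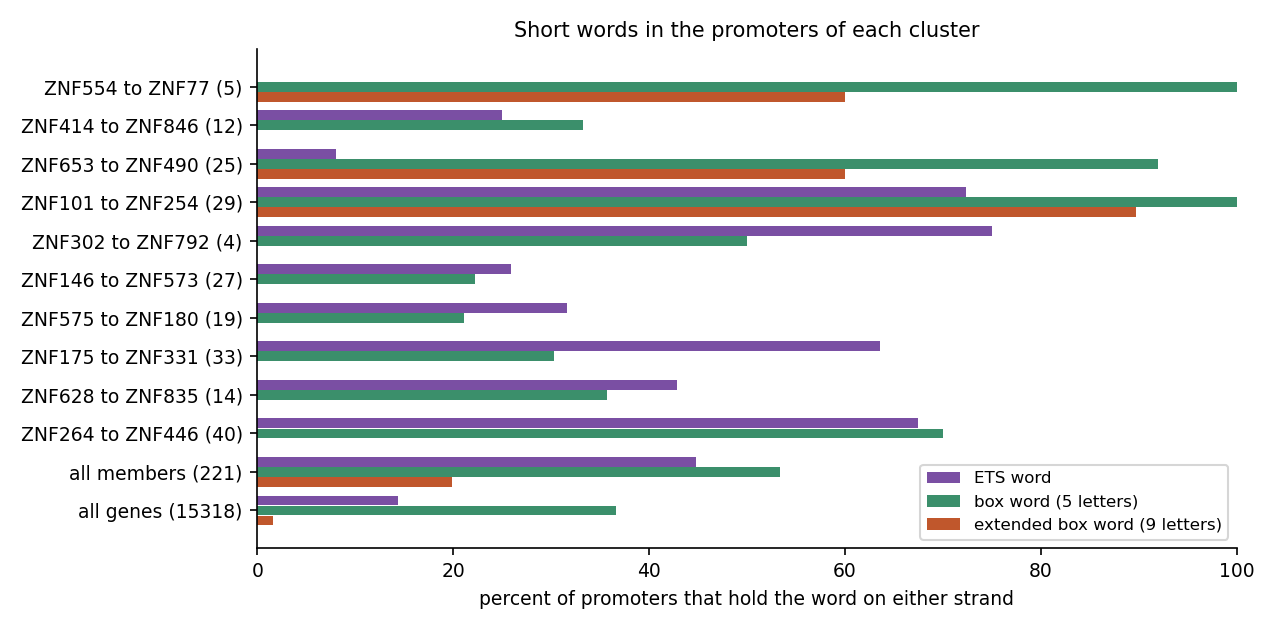
Percent of RefSeq promoters that hold the ETS word, the box word of 5 letters and the extended box word of 9 letters on either strand, for each cluster, all members and all genes, with the number of promoters in brackets. The extended word reaches 89.7% in ZNF101 to ZNF254 and is absent from 7 of the 10 clusters.

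Of 16 genes of the corepressor machinery that KRAB proteins use, 11, 10 and 16 were in a loop in Ishikawa, T-47D and LNCaP, where 57.3%, 49.2% and 58.1% of all genes were. TRIM28, near the end of chromosome 19, had 16, 67 and 301 read pairs in Ishikawa, T-47D and LNCaP in an anchor shared with ZBTB45, and was joined to 2 zinc finger members in T-47D and in LNCaP. SETDB1 had 0, 27 and 33. Among the HP1 genes, CBX5 had 166, 122 and 413, CBX1 had 0, 122 and 233, and CBX3 had 8, 27 and 168. The remodelling and deacetylase genes gave 4, 118 and 962 for CHD3, 329, 0 and 175 for CHD4, 14, 19 and 313 for HDAC1, and 17, 0 and 14 for HDAC2. The genes of the HUSH silencing complex gave 31, 0 and 11 for MPHOSPH8, 249, 18 and 54 for PPHLN1, and 0, 0 and 3 for TASOR. MORC2 had 6, 37 and 103, DAXX 6, 55 and 534, ATRX 0, 0 and 39, and SMARCAD1 0, 0 and 44. Apart from SETDB1, HDAC2, MPHOSPH8, TASOR, ATRX and SMARCAD1, each of these genes shared an anchor with another gene in at least 1 list.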

How the data were processed

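Per the labels and methods, the authors aligned H3K27ac HiChIP reads to hg19 with HiC-Pro, called loops with hichipper, dropped loops under 3 reads or over their false discovery limit and combined the samples of a cell line. The deposited value of a loop is a count of read pairs. Here counts of rows with the same 2 anchors were summed, since the Ishikawa list consisted of 4 parts. Self-pairs of anchors were absent for LNCaP, so its anchors are seen only through loops. All anchor edges on chromosome 19 fell at GATC sites of GRCh37, against 1.23% of positions, so coordinates are on GRCh37, counted from 1. Genes came from GENCODE lifted to GRCh37, and clusters ended where member starts lay over 500 kb apart. Shares carry 95% Wilson intervals. The tools were Python 3.11.15, NumPy 2.4.6, SciPy 1.17.1 and Matplotlib 3.10.9, and planted loops were recovered in simulated data. Named members were the 5 with the most read pairs and the 3 strongest loops per list, the 5 highest across lists, the 3 most list-specific, the leader of each cluster and 2 lists of known genes. Others were chosen after their values were seen. The members and lists were chosen with earlier results of these data known. The E2 and DMSO samples were not compared because no column separates them.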

Additional observations from a re-analysis of the deposited data

Results flagged for a closer look

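The difference between members and all genes in the percent in a loop had opposite signs in the lists, at -13.6, 25.6 and 28.5 percentage points in Ishikawa, T-47D and LNCaP. The difference between lists was not tested, because each cell line has 1 list. Pairs of an anchor with itself, which no comparison above uses, held 544 read pairs at member anchors in Ishikawa and 2451 in T-47D.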

How the results depend on the processing

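With 1 list per cell line, no replicate could be left out. No paired analysis was possible because no result comes from a test over samples. A minimum of 5 read pairs left 67 members in a loop, 56 with a distal link and 10 joined to a member in Ishikawa, 42 and 98 with a distal link in T-47D and LNCaP, 39 in loops in all 3 lists, and a T-47D difference from all genes of 15.6 points. A minimum of 10 left 28, 23 and 2 in Ishikawa, 51, 11 and 32 in T-47D, 141, 42 and 106 in LNCaP and 11 in all 3 lists, with differences of -2.95 points in T-47D, a change of sign, and 13.1 in LNCaP. Thinning toward the shallowest list, with the minimum of 3 applied afterwards, left an expected 52 members in a loop in Ishikawa and 133 in LNCaP. The LNCaP difference was then 11.1 points. Spans of 20 kb to 1 Mb left 68 members in a loop and 62 with a distal link in Ishikawa, 52 in all 3 lists, and an Ishikawa difference of -22.7 points. Ishikawa loops found in 2 or more parts left 64 members in a loop, 49 with a distal link, 10 joined to a member and 47 in all 3 lists. With 1 start site per gene, 9 members were joined to a member in Ishikawa and 55 were in loops in all 3 lists. The minima, thinning and spans remove loops by construction, which lowers counts. The Ishikawa difference stayed negative and the LNCaP difference positive under each alternative run. Clusters ended at gaps of 250 kb or 1000 kb numbered 30 or 16 in place of 22.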
